A study of Mus musculus with 24 samples.

Results

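The genes described here are a list of 36 that mark or drive epithelial-mesenchymal transition and fibrosis, out of 31053 gene identifiers counted in isolated mouse retinal pigment epithelium (RPE). The rule that selects them names genes and uses no measured value, but the list was drawn up with earlier results of these data known. It covers the transition's transcription factors, the mesenchymal cytoskeleton, matricellular proteins, the transforming growth factor beta (TGF-beta) axis, collagens, matrix proteases and receptors, and small leucine-rich proteoglycans. All 36 had an identifier in the count tables. The filter on low counts was passed by 31, and the other 5 (Snai2, Twist1, Twist2, Cnn1 and Itga5) are given by their counts.

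The series set Dct-Cre control mice against mice that carried a floxed Ift20 gene with the same Cre, and sampled both genotypes at 3 ages: postnatal days 11 (P11) and 29 (P29) and 3 months (3M). Each of the 6 groups had 4 libraries, 24 in all. The Ift20 protein belongs to the intraflagellar transport particle, which builds and maintains cilia. Every group, controls included, carried Dct-Cre, a recombinase under the promoter of a gene of pigment cells, so cells other than the RPE and melanocytes need not carry the deletion. The background strain was mixed and sex was not collected. The labels call the libraries biological replicates but do not say whether each came from 1 animal or from several, and RNA is described as mixed at a set concentration. P-values therefore measure the spread between libraries, which may be partly technical.

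In epithelial-mesenchymal transition an epithelial sheet loses its junctions and polarity and takes up a contractile, matrix-making, migratory state. TGF-beta ligands bind a receptor pair that phosphorylates Smad proteins, and factors of the Snai, Zeb and Twist families repress epithelial genes while actin-binding proteins, collagens and matricellular proteins rise. In the RPE this programme is known from proliferative vitreoretinopathy and from subretinal fibrosis, whereas in the healthy eye most fibrillar collagen is made by fibroblasts of the choroid and sclera, the layers beneath the RPE. Many of the same genes are therefore both transition markers and ordinary products of stromal cells, pericytes and smooth muscle, and in a bulk library fewer cells of a type and less RNA per cell cannot be told apart.

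Promoter sequence is shown for 3 matrix genes. The fibrillar collagen Col3a1 and the membrane-bound protease Mmp14 fell in all 4 age comparisons, and the fibrillar collagen Col5a1 was called with age and genotype only in fits without control replicate 3 at 3M, described below. Each run is the 250 bases before the gene's start in the RefSeq table for GRCm38.p6, written 5′ to 3′ on the gene's strand, and none of the 3 windows holds an annotated exon. Promoters of 27 of the 36 members were searched, and Zeb1 was not among these members. Capitals mark the Smad-binding motif CAGAC or its reverse complement GTCTG, and the TEAD motif GGAATG or its reverse complement CATTCC.
Col3a1, chr1:45311288-45311537, plus strand: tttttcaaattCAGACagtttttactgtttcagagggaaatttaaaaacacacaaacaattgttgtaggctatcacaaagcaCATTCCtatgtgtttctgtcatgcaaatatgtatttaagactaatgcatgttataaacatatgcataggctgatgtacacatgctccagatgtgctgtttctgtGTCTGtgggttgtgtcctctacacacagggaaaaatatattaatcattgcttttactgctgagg
Col5a1, chr2:27886175-27886424, plus strand: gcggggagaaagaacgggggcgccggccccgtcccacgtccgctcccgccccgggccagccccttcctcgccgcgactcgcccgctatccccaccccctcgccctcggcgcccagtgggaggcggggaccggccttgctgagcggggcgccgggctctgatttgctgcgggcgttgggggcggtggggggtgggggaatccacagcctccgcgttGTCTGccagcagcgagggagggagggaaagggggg
Mmp14, chr14:54431348-54431597, plus strand: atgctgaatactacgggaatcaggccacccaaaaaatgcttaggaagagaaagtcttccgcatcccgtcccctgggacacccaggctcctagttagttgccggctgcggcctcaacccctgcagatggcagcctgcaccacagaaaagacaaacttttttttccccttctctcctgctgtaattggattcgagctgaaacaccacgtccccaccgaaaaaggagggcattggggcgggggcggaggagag

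Both strands were searched. The Col3a1 window held CAGAC 239 bases before the start on the gene's strand and 64 bases before it on the other, and GGAATG 168 bases before it on the other strand. In the Col5a1 window CAGAC lay 35 bases before the start on the other strand. Neither motif was found in the Mmp14 window, which says only that these letters are not in those 250 bases. CAGAC was present upstream of 13 of the 27 members, and in 42.2% of 32851 windows of the same length. A member counted if any of its promoters held the motif (33 promoters in all), whereas the windows were counted singly. GGAATG was present for 5 members and in 12.6% of windows, the Snai and Zeb E-box CAGGTG for 1 (Snai1) and in 17.2%, the AP-1 motif TGANTCA for 2 and in 6.75%, and the CArG box bound by serum response factor for 1 (Myl9) and in 1.47%. The CAGAC share of the members was close to that of all windows, and no binding data are used here.

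Libraries held 1513440 to 2889946 counts in genes, and 13132 to 14709 genes with a count. Levels are in CPM, a gene's share of the library's counts after scaling by the trimmed mean of M-values (TMM), and 3 counts came to 1.003 to 1.90 CPM. Ift20 averaged 102.7 ± 36.9 CPM (SD, n = 4) in control and 85.6 ± 8.22 in mutant libraries at P11, 108 ± 18.3 and 71.3 ± 12.9 at P29, and 134 ± 18.3 and 112 ± 9.40 at 3M, and passed the test between genotypes at P29 (log2 fold change -0.60 ± 0.15, SE, edgeR adjusted p = 0.0112). The 3' reads may lie outside the deleted part of the gene, so its level is no full check of the deletion. The summed level of 10 RPE markers was 20490 to 21400 CPM in P11 control libraries and then 45910 to 46460 at P29 and 61270 to 63910 at 3M. Rpe65, the visual cycle isomerase, averaged 2412, 7667 and 8568 CPM there, but Best1, a chloride channel of the RPE, stayed at or below 2.93 CPM in every group mean. The strand used in counting is not stated. On the other strand, Gm29233 overlaps the last exons of Thbs1, Gm48529 and Pcsk7 those of Tagln, and Gm29100 those of Twist2. Zeb2 and S100a4 share theirs with Mir5129 and Gm42674 on the same strand.

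Control replicate 3 at 3M stood apart from the other 3. It was the highest of the 4 for 21 of the 31 members tested, against 25% of all 12303 genes tested. Col5a1 read 26.6 CPM there and 0, 0.45 and 1.62 CPM in the others, Postn 14.8 against 0.42, 1.35 and 0, Col1a1 292 against 63.96, 42 and 69.5, and Col1a2 366 against 146.8, 146.3 and 146.7. Among the 8219 genes of at least 10 CPM in that library, the 15 that exceeded the highest of the other 3 by most, a ranking made after the values were seen, included the members Col5a1, Postn and Col1a1, the imprinted RNA H19 (263 CPM against a mean of 5.06), the imprinted gene Dlk1 (20.9 against 1.12), the collagen cross-linking enzyme Lox (50.6 against 6.09) and the matrix proteins Fbln2, Fn1 and Aspn. Its depth, 2377223 counts in genes, lay within that of the other 3. Its share of unassigned reads, 19.7%, was the highest of the 4 (others 18.9% to 19.5%). So was its number of genes with a count, 13369 (others 13132 to 13252). Its multiply aligned share, 32.6%, was the lowest (others 32.9% to 33.2%). All of these lay within the ranges over all libraries of the series. Not every fibroblast gene was high: Dcn read 299 CPM against 260, 264 and 313, and the sum of 13 stromal fibroblast markers, 225 CPM against 146, 175 and 183, was 174 without Lox, against 137, 169 and 179. This library also widens the estimate of spread that all comparisons share, so each count of members called is also given without it. Leaving it out of comparisons that do not use it was chosen after the data were seen. It was singled out by high values of members. Calls that such members gain without it, in comparisons that use it, are therefore description only.

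Genotype at P11. In mutant RPE at P11, 4 of the 31 members fell: the contractile actin Acta2, the intermediate filament Vim and the matrix proteoglycans Dcn and Ogn. Of all genes tested, 6.93% passed in this comparison (edgeR's quasi-likelihood test, Benjamini-Hochberg adjusted p under 0.05). The members' median log2 fold change was -0.44, against -0.0016 over all genes tested. Without control replicate 3 at 3M the count was 6 members, all lower, with Col3a1 and Col1a2 added. In that fit 6.92% of 12675 genes passed. Library measures also separated the genotypes at this age: unassigned reads were 22.7% to 24.1% in controls and 26.5% to 27.5% in mutants, and genes with a count 13363 to 14057 and 14599 to 14709. Their part in the members' differences was not tested.

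Acta2 (chr19:34241090-34255590), the actin isoform of smooth muscle and myofibroblasts, measured 102, 102, 102 and 136 CPM in control libraries at P11 and 51.1, 64.1, 61.6 and 77.6 in mutant libraries. Every mutant library lay below every control library, and 1 control library lay well above the other 3. The means were 110.3 ± 16.8 and 63.6 ± 10.9 CPM (SD, n = 4), 1.73-fold lower in mutants (log2 -0.79 ± 0.14, SE, edgeR adjusted p = 3.56e-05). Vim (chr2:13573927-13582826), vimentin, the intermediate filament of mesenchymal cells that the RPE also makes, measured 282, 188, 239 and 217 CPM in controls and 152, 168, 135 and 158 in mutants. The groups did not overlap, and the mutant libraries were the tighter group. Its change was -0.60 ± 0.12 (SE, edgeR adjusted p = 0.000336).

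Dcn (chr10:97479609-97518143), decorin, a collagen-binding proteoglycan that also sequesters TGF-beta, measured 363, 368, 376 and 345 CPM in controls and 268, 282, 206 and 289 in mutants at P11. No mutant library reached the lowest control. The change in log2 units was -0.47 ± 0.08 (SE, edgeR adjusted p = 2.97e-05). Ogn (chr13:49608046-49624501), osteoglycin, a related proteoglycan of connective tissue, measured 49.5, 40.9, 76.6 and 47.3 CPM in controls and 37.8, 26.2, 29.9 and 35.3 in mutants. The groups were separate but close, and control replicate 3 was far above its group. On the log2 scale the difference was -0.72 ± 0.20 (SE, edgeR adjusted p = 0.0134), with adjusted p over the alternatives of 0.00621 to 0.154. Ogn was no longer called on leaving out control replicate 3 (-0.51, edgeR adjusted p = 0.154), without mutant replicate 2 (-0.63, edgeR adjusted p = 0.0698) and in a fit on the P11 libraries alone (-0.74, edgeR adjusted p = 0.0553).

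Col3a1 (chr1:45311538-45349706), the chain of type III fibrillar collagen, measured 584, 451, 607 and 530.3 CPM in control and 371, 375, 356 and 378 in mutant libraries at P11. All 4 mutant libraries lay below all 4 controls and close together. In log2 units mutants differed by -0.55 ± 0.23 (SE, edgeR adjusted p = 0.185) with 24 libraries and -0.56 ± 0.10 (SE, edgeR adjusted p = 1.69e-05) without control replicate 3 at 3M, which is not part of this comparison but enters the shared estimate of spread, and its adjusted p over the alternatives was 1.69e-05 to 0.317. Col1a2, a chain of type I collagen, measured 1250, 1209, 1257 and 1391 CPM in controls and 1107, 1089, 1122 and 1043 in mutants, again without overlap. The log2 change of Col1a2 was -0.23 ± 0.20 (SE, edgeR adjusted p = 0.613), and -0.23 ± 0.07 (SE, edgeR adjusted p = 0.0395) without that library (range of adjusted p over the alternatives 0.0236 to 0.726). The groups of Thbs2 and Lum did not overlap either, though neither gene was called. The share of all genes tested whose groups were separate was not computed, at this or any other age. Separate groups without a call are therefore description only. Thbs2 measured 17.4 to 27.7 CPM in controls and 7.85 to 17.1 in mutants (log2 -0.92 ± 0.42, SE, edgeR adjusted p = 0.194), and Lum 13.8 to 17.5 and 6.98 to 12.3 (log2 -0.54 ± 0.40, SE, edgeR adjusted p = 0.507).

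Every call in the companion lists at P11 was in the lower direction. Of 32 TGF-beta pathway companions tested, 5 fell, with Ltbp4, which anchors latent TGF-beta in the matrix, at -1.54 (edgeR adjusted p = 0.000284), the secreted follistatin-like protein Fstl1 at -0.53 (0.000542) and the co-receptor Tgfbr3 at -0.84 (0.000831). Of 32 matrix assembly companions tested, 9 fell, led by Pcolce, the enhancer of procollagen processing, at -0.69 (2.64e-07), elastin (Eln) at -1.13 (4.61e-06) and Col8a1 at -0.25 (0.000176). Of 25 contractile cytoskeleton companions tested, 5 fell, among them Actb at -0.48 (1.72e-09), Cnn3 at -0.50 (0.000238) and Myl12a at -0.61 (0.00097). In the epithelial list 0 of 16 tested genes rose and 3 fell, the tight junction genes Cldn1 (-0.54, 1.29e-05) and Cldn5 (-2.58, 0.00496) and the RPE cadherin Cdh3 (-1.04, 3.17e-05). Cldn5 is also an endothelial gene. Median log2 changes over the tested genes were -0.31 for the TGF-beta, -0.33 for the matrix, -0.31 for the cytoskeletal and -0.10 for the epithelial list, against the members' -0.44.

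Markers of other cell types also differed between genotypes at P11. The sum of 11 pericyte and smooth muscle markers was 259 to 312 CPM in controls and 134 to 174 in mutants, with 3 of 8 tested markers lower. The sum of 12 endothelial markers was 508 to 538 and 232 to 269 CPM, with 7 of 12 lower, and that of 13 stromal fibroblast markers 345 to 393 and 282 to 296 CPM, with 1 of 12 tested lower. The defining markers of all 3 lists (Rgs5, Pdgfrb and Cspg4; Pecam1, Cdh5 and Kdr; Pdgfra, Pi16 and Dpt) had counts in both genotypes. Markers of Schwann cells summed to 406 to 536 and 86.2 to 123 CPM, with 5 of 6 tested lower, and 4 of 6 melanocyte markers were lower. Lens markers summed to 112 to 152 and 50.6 to 67 CPM, with 4 of 9 lower, and 3 of 7 Muller glia and astrocyte markers were lower. In the other direction, rod photoreceptor markers summed to 8786 to 9932 CPM in controls and 11210 to 11680 in mutants, with 5 of 9 higher, 2 of 5 erythrocyte markers were higher, and so were both tested markers of corneal, conjunctival and ciliary epithelium. RPE markers summed to 20490 to 21400 CPM in controls and 19160 to 20150 in mutants. Of 9 tested RPE markers, 6 were lower in mutants. The part of these cell types in the fall of Acta2, Vim, Dcn and Ogn was not tested.

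**Figure D1:**
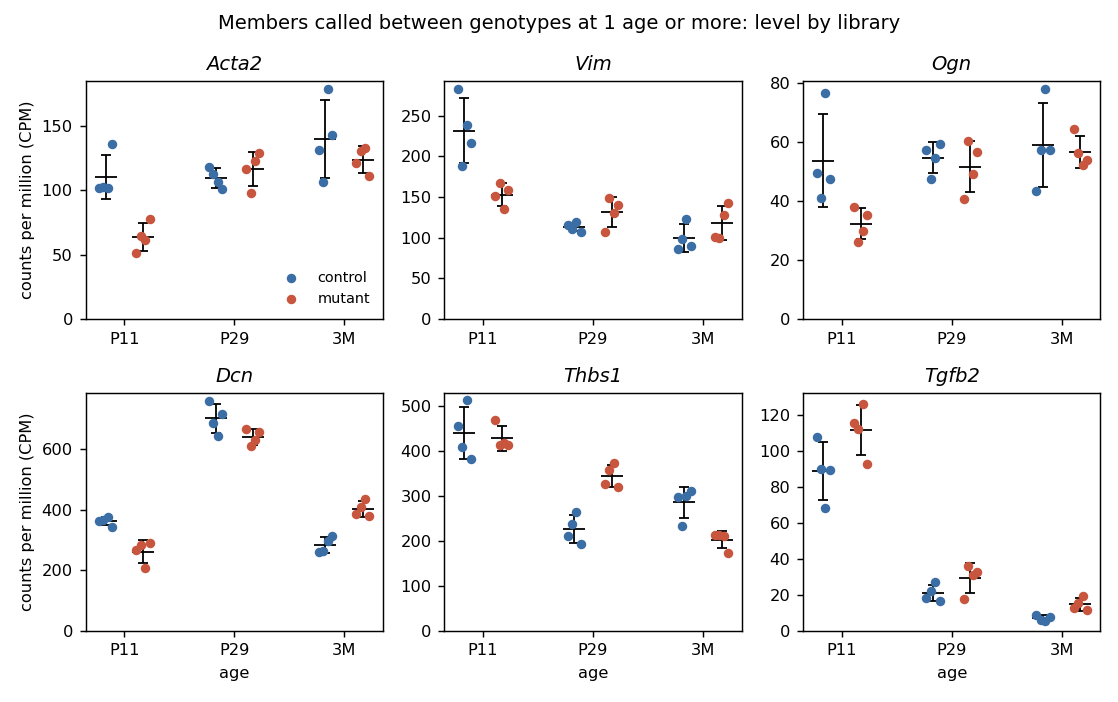
Level in CPM (y axis, from 0) of the 6 members called between genotypes at 1 age or more, by age (x axis). Points are libraries, blue control and red mutant, with the mean and SD of 4 libraries in black. Acta2, Vim, Ogn and Dcn were lower in mutants at P11, Thbs1 was higher in mutants at P29 and lower at 3M, and Dcn and Tgfb2 were higher in mutants at 3M.

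Genotype at P29. At P29 a single member, Thbs1, passed between genotypes and was higher in mutants; 2.84% of all genes tested passed. The members' median log2 fold change was 0.09, against -0.0007 over all genes. Thbs1 (chr2:118111876-118127133), thrombospondin 1, a matricellular protein that activates latent TGF-beta, measured 210.3, 236, 264 and 193 CPM in controls and 326, 357, 372 and 319.8 in mutants. The mutant libraries all lay above the controls, with a gap between the highest control and the lowest mutant. The difference was 1.52-fold (log2 0.61 ± 0.09, SE, edgeR adjusted p = 1.19e-06).

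Postn, periostin, a matricellular protein of fibrotic tissue, measured 4.997, 5.98, 4.06 and 0.991 CPM in controls and 13.8, 8.27, 15.4 and 14.5 in mutants at P29, so the groups did not overlap. Its log2 fold change of 1.65 ± 0.67 (SE, edgeR adjusted p = 0.289) passed on leaving out control replicate 3 at 3M (1.65, edgeR adjusted p = 0.0294, range over the alternatives 0.026 to 0.51), when the count was 2 members. In that fit 2.8% of 12675 genes passed. Tpm1, a tropomyosin of stress fibres, measured 83.5, 78.5, 68.95 and 66.4 CPM in controls and 105, 95.3, 99.1 and 104 in mutants, also without overlap. The log2 change of Tpm1 was 0.44 ± 0.15 (SE, edgeR adjusted p = 0.0976). The groups of Thbs2 and Col1a2 were also separate without a call, Thbs2 at 6.44 to 7.97 CPM in controls and 11.99 to 18.8 in mutants (log2 0.94 ± 0.43, SE, edgeR adjusted p = 0.354) and Col1a2 at 606 to 659.8 and 557 to 591 (log2 -0.16 ± 0.20, SE, edgeR adjusted p = 0.866).

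Among the companions at P29, 0 of 32 TGF-beta genes and 0 of 25 cytoskeletal genes passed in edgeR and 0 in DESeq2, with 3 and 2 at an unadjusted p under 0.05. Eln, the core of elastic fibres, was the 1 matrix companion called, higher in mutants (1.03, edgeR adjusted p = 0.000682), and Cldn1 the 1 epithelial gene, lower (-0.34, 0.0126). The medians were 0.05 for the TGF-beta, -0.01 for the matrix, -0.02 for the cytoskeletal and -0.10 for the epithelial list. Lens markers moved with genotype at this age, with a 9-gene sum of 42.4 to 52.5 CPM in controls and 896 to 979 in mutants and 8 of 9 higher. Fibroblast markers summed to 423 to 462 and 371 to 388 CPM, with 0 of 12 called, and endothelial markers to 81.7 to 115 and 134 to 147, with 1 of 12 higher. Rod markers summed to 8947 to 9710 and 13080 to 14330 CPM, with 8 of 9 higher, and 4 of 5 erythrocyte markers and both tested surface epithelium markers were higher. RPE markers summed to 45910 to 46460 CPM in controls and 39680 to 42210 in mutants. Of 9 tested RPE markers, 3 were higher in mutants and 3 lower. The part of lens, rod and other RNA, or of the RPE's own, in the higher Thbs1 was not tested.

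Genotype at 3M. At this age, 2 members were higher in mutants, Dcn and Tgfb2, and 1 was lower, Thbs1; 2.61% of all genes tested passed. The members' median was 0.24 on the log2 scale, against 0.03 over all genes. Without control replicate 3 the count was 6: Col1a2, Col3a1, Col5a1 and Mmp14 were added on the higher side, Dcn and Thbs1 kept their calls and Tgfb2 lost its. That library stood out by high values of the same added genes, so their calls without it are not independent of that choice. The median was then 0.53, and 2.15% of 12675 genes passed.

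Dcn measured 260, 264, 299 and 313 CPM in controls and 386, 410.4, 436 and 379 in mutants. Every mutant library lay above every control, the reverse of their order at P11. The log2 difference came to 0.50 ± 0.08 (SE, edgeR adjusted p = 5.82e-06) with all controls and 0.53 ± 0.09 (SE, edgeR adjusted p = 1.62e-05) without replicate 3, over a range of adjusted p of 5.62e-07 to 0.000258. Thbs1 measured 298, 233, 299 and 310.4 CPM in controls and 214, 213, 212 and 173 in mutants, separate groups with mutants now below. The log2 change of Thbs1 was -0.49 ± 0.10 (SE, edgeR adjusted p = 0.000191). Tgfb2 (chr1:186622792-186705989), the TGF-beta isoform known as the main one of the posterior eye, measured 8.84, 5.87, 5.67 and 7.68 CPM in controls and 12.5, 15.7, 19.3 and 11.3 in mutants. The groups did not overlap, at 66 counts over the control group and 137 over the mutant group. The log2 fold change of 1.05 ± 0.27 (SE, edgeR adjusted p = 0.0139) no longer passed without control replicate 2 or control replicate 3 (edgeR adjusted p = 0.0532 and 0.0652), without mutant replicate 3 (0.109) or in a fit on the 3M libraries alone (0.12), within a range over the alternatives of 0.00982 to 0.12.

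The fibrillar collagens at 3M turned on 1 library. Col1a1, the main chain of type I collagen, measured 63.96, 42, 292 and 69.5 CPM in controls and 70.8, 112, 137 and 76.9 in mutants, and Col1a2 147, 146, 366 and 147 and 159.9, 212, 246 and 192. Control replicate 3 was above every mutant library for both genes. With it the log2 fold changes were -0.24 and 0.00 (edgeR adjusted p = 0.939 for Col1a1 and 1 for Col1a2). Without it they were 0.75 and 0.46 (edgeR adjusted p = 0.0754 and 0.000157). Col3a1 measured 29.03, 28.9, 97.2 and 31.5 CPM in controls and 34.4, 46.2, 56.6 and 41.5 in mutants. Its log2 change was -0.06 ± 0.30 (SE, edgeR adjusted p = 0.987) with that library and 0.58 ± 0.14 (SE, edgeR adjusted p = 0.00897) without it, where the remaining controls lay below every mutant library. Col5a1, a chain of type V collagen that starts fibrils, measured 0, 0.452, 26.6 and 1.62 CPM and 3.52, 6.53, 12.1 and 5.24. It went from -0.07 ± 0.86 (SE, edgeR adjusted p = 0.996) to 3.17 ± 0.65 (SE, edgeR adjusted p = 0.000609). Mmp14, the membrane protease that activates pro-Mmp2, measured 17.2, 15.8, 36.2 and 17.4 CPM and 30.5, 37.5, 28.3 and 23.6, and went from 0.47 ± 0.22 (SE, edgeR adjusted p = 0.368) to 0.83 ± 0.23 (SE, edgeR adjusted p = 0.0277). Over the alternatives their adjusted p ran from 0.000157 (Col1a2), 0.00897 (Col3a1), 0.000609 (Col5a1) and 0.0277 (Mmp14) up to 1, 1, 1 and 0.705.

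**Figure D2:**
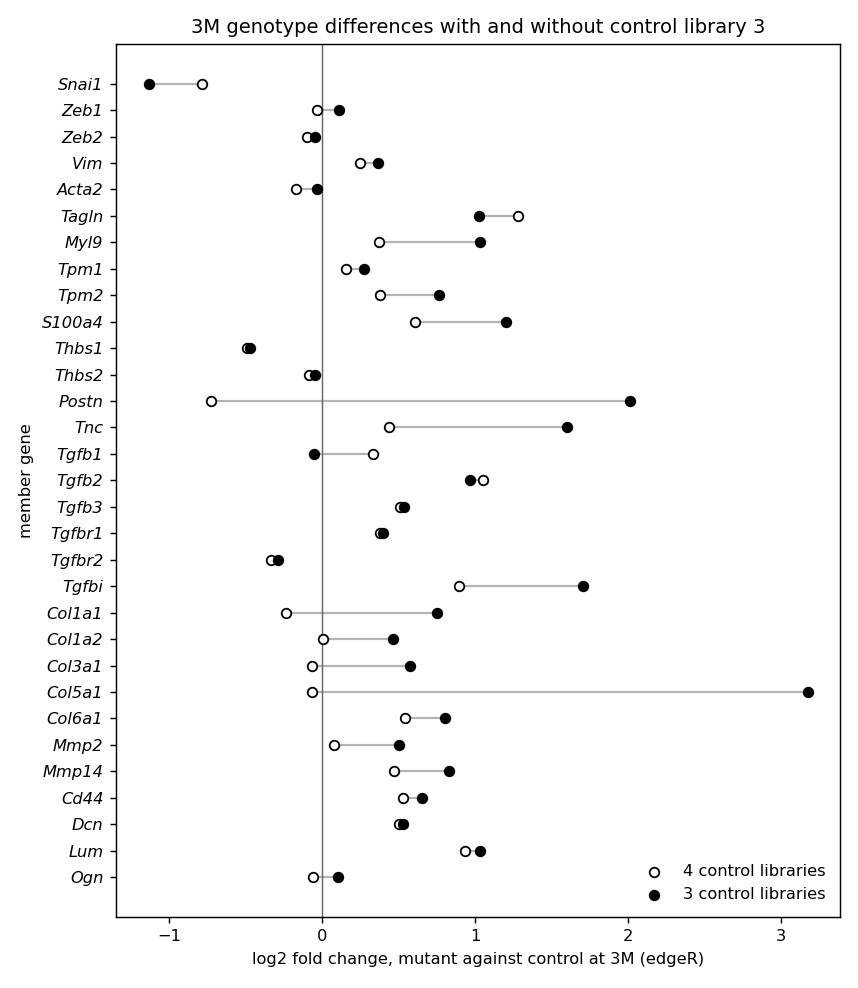
Log2 fold change of mutant against control at 3M (x axis) for the 31 members tested (y axis), from edgeR, with all 4 control libraries (open) and without replicate 3 (filled). Col5a1 moved from -0.07 to 3.17 and Postn from -0.73 to 2.01, whereas Dcn, Thbs1 and Tgfb2 stayed near their values.

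At 3M the fibroblast markers summed to 146 to 225 CPM in controls and 231 to 250.5 in mutants, with 1 of 12 tested higher, and endothelial markers to 18.6 to 37.9 and 41.05 to 48.5 CPM, with 2 of 12 higher. Pericyte and smooth muscle markers summed to 186 to 208 and 206 to 237 CPM, with 1 of 8 tested higher. All 3 defining markers of each list had counts in both genotypes. Rod markers summed to 3508 to 3814 CPM in controls and 6276 to 6731 in mutants, with 8 of 9 higher, and erythrocyte markers to 2079 to 2210 and 2497 to 2664 CPM, with 4 of 5 higher. The part of these cell types in the higher Dcn was not tested, nor in the collagens called higher only without control replicate 3. Genes with a count numbered 13132 to 13369 in controls and 13943 to 14043 in mutants. Unassigned reads were 18.9% to 19.7% in controls and 18.6% to 18.8% in mutants. Among companions, the matricellular gene Ccn1 fell (-0.57, edgeR adjusted p = 0.0194), as did the collagen chaperone Serpinh1 (-0.51, 0.0217), Col8a1 (-0.17, 0.0381) and Cldn1 (-0.62, 7.78e-08), while the myosin kinase Mylk rose (0.95, 0.000248). Those were the called genes of the 4 companion lists, whose medians were -0.07 for the TGF-beta, -0.12 for the matrix, -0.03 for the cytoskeletal and -0.13 for the epithelial list.

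Genotype differences between ages. The genotype effect at P29 was higher than that at P11 for 4 members, Acta2, Vim, Tpm1 and Thbs1, where 2.63% of all genes tested passed. In log2 units Acta2 differed by 0.88 ± 0.20 (SE, edgeR adjusted p = 0.00224), Vim by 0.82 ± 0.18 (SE, edgeR adjusted p = 0.00133), Thbs1 by 0.64 ± 0.13 (SE, edgeR adjusted p = 0.000672) and Tpm1 by 0.71 ± 0.21 (SE, edgeR adjusted p = 0.0383). The count was 5 without control replicate 3 at 3M, with Col3a1 added at 0.55 ± 0.14 (SE, edgeR adjusted p = 0.0117), in a range of adjusted p over the alternatives of 0.00528 to 0.636. In that fit 2.61% of 12675 genes passed. The Tpm1 difference rested on most libraries at once: it was lost without control replicate 2 or 3 or mutant replicate 2 or 3 at P11, and without control replicate 3 or 4 or mutant replicate 1, 3 or 4 at P29 (log2 0.58 to 0.72, edgeR adjusted p = 0.0595 to 0.128).

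Between P29 and 3M the genotype effect changed for 2 members, against 0.853% of all genes. Thbs1 went from higher to lower in mutants, a difference of -1.10 ± 0.13 (SE, edgeR adjusted p = 2.81e-09), and Dcn shifted by 0.63 ± 0.12 (SE, edgeR adjusted p = 0.000192). The count was 4 without control replicate 3 at 3M, with Col1a2 at 0.62 ± 0.12 (SE, edgeR adjusted p = 0.000262) and Col5a1 at 3.02 ± 0.75 (SE, edgeR adjusted p = 0.0209) added, in ranges of adjusted p of 0.000262 to 1 and 0.0209 to 1. Without that library 0.765% of 12675 genes passed. Both differences between ages use the P29 libraries, as do the genotype comparisons at P29, so they are not independent of one another. In these libraries Thbs1 was above controls in mutants at P29 and below them at 3M, with overlapping groups at P11: group means were 439 ± 57.1, 226 ± 30.99 and 285 ± 35.1 CPM in controls and 428 ± 27.2, 344 ± 24.9 and 203 ± 19.8 in mutants (SD, n = 4).

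Age in controls, P11 to P29. Most of the large changes in the list were with age. From P11 to P29 in controls, 15 of 31 members fell and 1, Dcn, rose, while 32% of all genes tested passed. The members' median log2 fold change was -0.96, against -0.02 over all genes. On leaving out control replicate 3 at 3M the count was 17, with Col5a1 added at -1.54 ± 0.33 (SE, edgeR adjusted p = 9.53e-05), where its adjusted p with all libraries was 0.108. In that fit 31.7% of 12675 genes passed.

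The matricellular genes Postn and Tnc had the largest falls among the members called. Postn measured 29.4, 12.6, 16.4 and 36.7 CPM at P11 and 4.997, 5.98, 4.06 and 0.991 at P29, and Tnc, tenascin C, a glycoprotein of developing and wounded matrix, 24.4, 16.2, 17.7 and 24.4 and 6.07, 3.59, 4.42 and 0.495. For both genes every P29 library was below every P11 library. Postn was 5.94-fold lower (log2 -2.54 ± 0.67, SE, edgeR adjusted p = 0.00352) and Tnc 5.68-fold lower (-2.45 ± 0.52, SE, edgeR adjusted p = 7.57e-05). Thbs2, an inhibitor of vessel growth related to Thbs1, measured 17.4, 27.7, 21.5 and 21.8 CPM and then 7.50, 7.97, 7.01 and 6.44, a 3.06-fold fall (-1.60 ± 0.43, SE, edgeR adjusted p = 0.0018). Thbs1 measured 456, 407, 512 and 383 CPM at P11 against the P29 values given above, with no overlap (-0.96 ± 0.09, SE, edgeR adjusted p = 3.12e-15).

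On the TGF-beta axis, Tgfb2 fell 4.24-fold, from 108, 90.2, 68.3 and 89.3 CPM to 18.2, 21.9, 26.9 and 16.8 (log2 -2.08 ± 0.21, SE, edgeR adjusted p = 1.83e-14). The groups were far apart. Tgfb1, the isoform best known from wound fibrosis, was near the detection limit, with 56 counts over the P11 controls and 14 over the P29 controls (log2 -2.28 ± 0.96, SE, edgeR adjusted p = 0.0594). Tgfb3 measured 10.8 to 28.9 CPM and 12.5 to 29.5, the receptor kinases Tgfbr1 3.80 to 25.5 and 5.58 to 14.4 and Tgfbr2 10.8 to 31.6 and 9.96 to 25.8, and the induced matrix protein Tgfbi 4.81 to 17.04 and 6.44 to 18.8. These 4 genes had overlapping groups and adjusted p of 0.214 to 0.986 in edgeR. The companions of the pathway went both ways: 9 of 32 rose and 7 fell, with Ccn1, a target of Yap and of TGF-beta, at 1.91 (edgeR adjusted p = 1.07e-16), Itgb8, the integrin chain that frees latent TGF-beta, at 1.24 (3.91e-10) and Fstl1 at -1.24 (2.78e-16).

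Of the collagens Col1a1, Col1a2 and Col3a1 fell over the same interval, while Col5a1 and Col6a1 did not pass with all libraries (edgeR adjusted p = 0.108 and 0.163). Of the cytoskeletal members Myl9, Vim, Tpm1 and Tpm2 fell. Col1a1 measured 933, 846, 786 and 929.8 CPM at P11 and 342, 382, 352 and 317 at P29 (-1.33 ± 0.36, SE, edgeR adjusted p = 0.00809). Col1a2 went from the P11 values above to 647, 606, 648 and 659.8 (-1.0 ± 0.20, SE, edgeR adjusted p = 0.000754), and Col3a1 to 176, 179, 166 and 182 (-1.63 ± 0.24, SE, edgeR adjusted p = 1.89e-05). In each of these 3 genes the groups were wide apart and tight at P29. Mmp2, gelatinase A, measured 22.7, 31.3, 41.1 and 24.4 CPM and 17.1, 14.3, 9.96 and 10.4 (-1.19 ± 0.36, SE, edgeR adjusted p = 0.0064). Myl9, the regulatory light chain of contractile myosin, fell from 22.1, 18.6, 26.6 and 31.4 CPM to 7.50, 7.17, 7.74 and 8.92 (-1.65 ± 0.41, SE, edgeR adjusted p = 0.000768). Vim fell to 115, 111, 119.5 and 108 CPM (-1.04 ± 0.12, SE, edgeR adjusted p = 1.88e-11). Tpm2, a second tropomyosin, measured 18.7, 29.5, 31.6 and 12.2 CPM and 11.1, 13.9, 8.11 and 8.92, groups that overlapped (-1.11 ± 0.39, SE, edgeR adjusted p = 0.0204).

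Of the others, 3 members fell by less than 1 on the log2 scale: Tpm1 (-0.83, edgeR adjusted p = 2.09e-06), the repressor Zeb1 (-0.68, 0.00404) and Mmp14 (-0.54, 0.0221). The Tpm2 call was lost without control replicate 2 or 3 at P11 or 3 or 4 at P29 (log2 -1.04 to -0.92, edgeR adjusted p = 0.0547 to 0.0906), and that of Mmp14 without control replicate 3 at P11 or 1 or 3 at P29 (-0.52 to -0.46, 0.0509 to 0.0835). Dcn was the exception. It rose from the P11 values above to 760, 687, 646 and 717 CPM, with no overlap (0.95 ± 0.08, SE, edgeR adjusted p = 4.22e-18), and Ogn and Acta2 kept overlapping groups (0.04 and -0.01 on the log2 scale, edgeR adjusted p = 0.914 and 0.97).

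Over this interval the fibroblast marker sum was 345 to 393 and then 423 to 462 CPM, with 3 of 12 tested higher and 4 lower, while the endothelial sum was 508 to 538 and then 81.7 to 115, with 12 of 12 lower. The pericyte sum was 259 to 312 and then 199.6 to 236, with 1 of 8 higher and 2 lower. Of 9 rod markers 3 were higher and 5 lower, and 6 of 9 lens and 5 of 5 erythrocyte markers were lower. The part of these cell types in the members' changes was not tested. Of 32 matrix assembly companions, 14 fell and 3 rose, with Sparc, a collagen-binding glycoprotein, at -1.12 (edgeR adjusted p = 1.22e-29), and Col8a2 and Pcolce higher at 1.30 (6.2e-33) and 1.82 (9.46e-33). Of 25 cytoskeletal companions, 7 rose and 5 fell. Of 16 tested genes of the epithelial list 5 rose and 4 fell. The latter included N-cadherin (Cdh2) at -1.80 (edgeR adjusted p = 9.77e-07), a cadherin not confined to epithelia. Median changes were -0.17 for the TGF-beta, -0.56 for the matrix, -0.23 for the cytoskeletal and 0.29 for the epithelial list, all smaller in size than the members' -0.96.

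**Figure D3:**
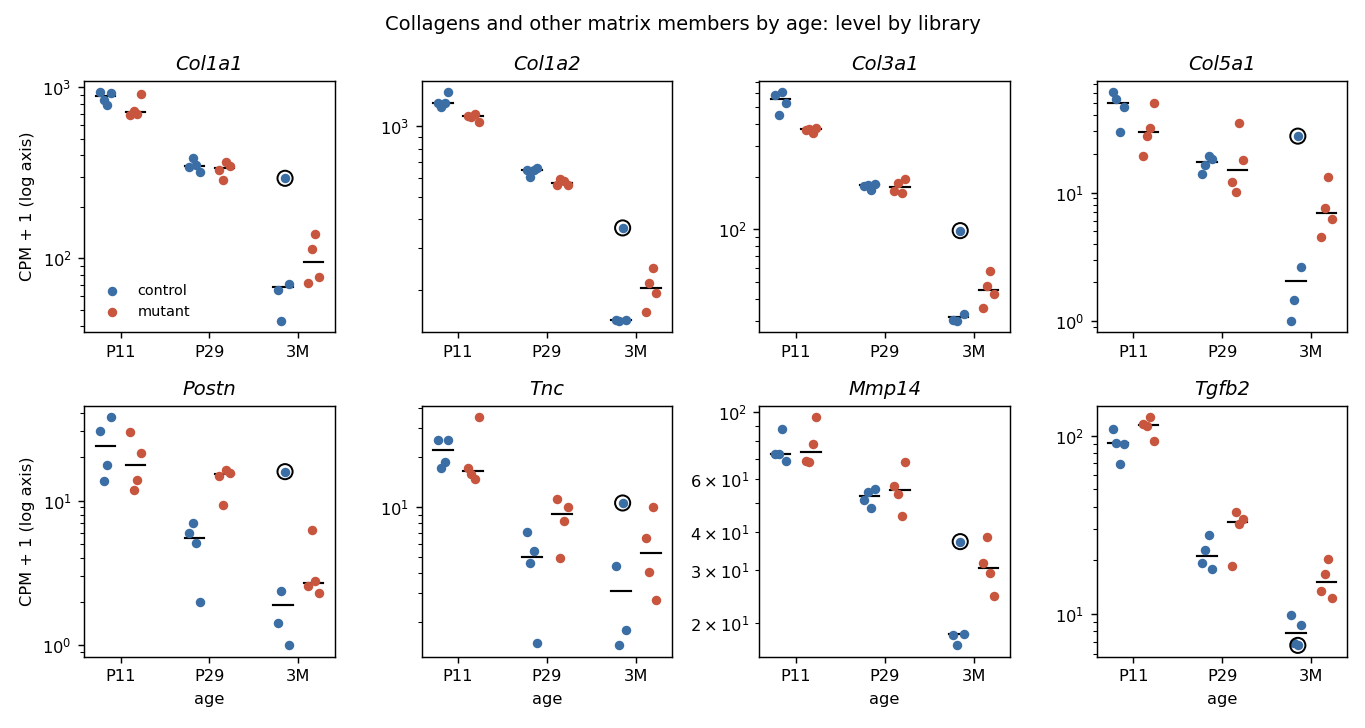
Level (CPM + 1, log axis) of 8 matrix and TGF-beta members by age (x axis) in control (blue) and mutant (red) libraries, with the median of 4 as a bar. The ringed point is control replicate 3 at 3M, the highest of its group in every panel but that of Tgfb2, where it is the lowest at 5.67 CPM.

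Age in controls, P29 to 3M. From P29 to 3M in controls, 10 members fell and 1, Thbs1, rose, where 12% of all genes passed. The median was -0.67, against -0.03 over all genes. Without control replicate 3 at 3M the count was 14 lower and 1 higher, where 10.6% of genes passed, and the median was -1.25: Col5a1, Postn, Myl9 and Mmp2 were added. This comparison shares the P29 libraries with the one before it, with the opposite sign.

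Col1a1 fell from the P29 values above to the 3M values above, 2.98-fold (-1.58 ± 0.39, SE, edgeR adjusted p = 0.00961), or -2.57 ± 0.20 (SE, edgeR adjusted p = 1.38e-08) without control replicate 3 at 3M. The call with all libraries was lost in a fit on the compared libraries alone (-1.57, edgeR adjusted p = 0.182). Col1a2 had a log2 change of -1.67 (edgeR adjusted p = 1.33e-05) and Col3a1 of -1.92 (3.52e-05). Without that library they were -2.12 and -2.554 (edgeR adjusted p = 4.01e-39 and 4.52e-32). Even with it, all 3M libraries were below all P29 libraries for the 3 genes. Col5a1 measured 12.8, 15.5, 18.4 and 17.3 CPM at P29. Its log2 change was -1.16 ± 0.79 (SE, edgeR adjusted p = 0.436) with the library and -4.40 ± 0.59 (SE, edgeR adjusted p = 7.13e-09) without. Col6a1, a chain of beaded-filament collagen, measured 12.8, 25.5, 21.8 and 23.8 CPM and 5.47, 5.87, 9.59 and 4.45 (-1.72 ± 0.36, SE, edgeR adjusted p = 0.00015).

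Tgfb2 fell again, 2.99-fold (-1.57 ± 0.26, SE, edgeR adjusted p = 1.74e-06), with no overlap. Dcn, which had risen, fell 2.47-fold (-1.31 ± 0.08, SE, edgeR adjusted p = 1.17e-25). Lum, lumican, a proteoglycan that spaces collagen fibrils, measured 12.5, 12.8, 14.01 and 18.3 CPM at P29 and 2.94, 5.87, 6.10 and 5.25 at 3M, well apart (-1.50 ± 0.43, SE, edgeR adjusted p = 0.00901). It no longer passed without control replicate 1 at 3M (-1.31, edgeR adjusted p = 0.0514). Mmp14 measured 49.97, 53.4, 47.2 and 54.5 CPM at P29 and fell below that in every 3M library (-1.24 ± 0.21, SE, edgeR adjusted p = 2.02e-06). Cd44, the hyaluronan receptor, measured 11.8, 19.9, 12.5 and 20.3 CPM and 3.37, 5.87, 8.28 and 8.89, separate groups (-1.27 ± 0.39, SE, edgeR adjusted p = 0.0192). Tgfbi measured 9.99, 11.2, 18.8 and 6.44 CPM and 1.68, 5.42, 10.02 and 0.404, with overlap (-1.42 ± 0.50, SE, edgeR adjusted p = 0.0478).

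Weaker calls rested on single libraries. Cd44 was lost without control replicate 2 or 4 at P29 or 1 or 2 at 3M (log2 -1.22 to -1.05, edgeR adjusted p = 0.0552 to 0.104). Tgfbi was lost without any of control replicates 1, 2 or 3 at P29 or 1, 2 or 4 at 3M (-1.54 to -1.03, 0.0613 to 0.236), and also with median-of-ratios size factors, with no filter and on the compared libraries alone (0.0513, 0.0643 and 0.0652). It stood at -2.23 (0.00391) without replicate 3 at 3M. The small rise of Thbs1 (0.33 ± 0.09, SE, edgeR adjusted p = 0.00872), whose groups overlapped, was lost without control replicate 4 at P29 or at 3M (0.27 and 0.29, 0.0769 and 0.0555).

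The fibroblast marker sum was 423 to 462 CPM at P29 and then 146 to 225 at 3M in controls, with 7 of 12 tested lower, and the endothelial sum 81.7 to 115 and then 18.6 to 37.9, with 7 of 12 lower, beside an RPE marker sum that went up (6 of 9 higher, 3 lower). Rod (9 of 9), erythrocyte (5 of 5) and lens (6 of 9) markers were lower too. The part of these cell types in the fall of the collagens and proteoglycans was not tested. Of the companions, 7 of 32 matrix genes fell and 1 rose, with the fibril-associated collagen Col14a1 at -2.26 (edgeR adjusted p = 7.61e-09), and 3 of 32 TGF-beta genes fell and 2 rose. Of 25 cytoskeletal genes 6 fell, among them Mylk at -2.05 (1.59e-17), and 4 rose. Their medians were -0.19 for the TGF-beta, -0.20 for the matrix, -0.09 for the cytoskeletal and 0.02 for the epithelial list.

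Age in mutants. From P11 to P29 in mutant RPE, 9 members fell and 3 rose, with 31.7% of all genes passing. The median was -0.31, against -0.01 over all genes. Without control replicate 3 at 3M the counts were also 9 lower and 3 higher, where 31.2% of 12675 genes passed. Acta2 rose, from the P11 values above to 116, 98.1, 123 and 129 CPM (0.87 ± 0.14, SE, edgeR adjusted p = 2.07e-07), and Ogn to 40.6, 60.3, 49.1 and 56.4 (0.68 ± 0.20, SE, edgeR adjusted p = 0.00462). For these 2 genes the mutant libraries at P29 overlapped the control range, 101 to 118 and 47.4 to 59.4 CPM. Dcn rose to 668, 610.2, 631 and 659 CPM (1.29 ± 0.08, SE, edgeR adjusted p = 8.4e-26). Vim, which fell in controls, had a log2 fold change of -0.22 ± 0.12 (SE, edgeR adjusted p = 0.196) in mutants, at 106, 149, 130.2 and 141 CPM.

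Markers and companion lists went in both directions from P11 to P29 in mutants. The pericyte and smooth muscle sum was 134 to 174 CPM and then 190.4 to 249.8, with 3 of 8 tested markers higher, and the fibroblast sum 282 to 296 and then 371 to 388, with 3 of 12 higher and 2 lower. The lens sum was 50.6 to 67 and then 896 to 979 CPM, with 8 of 9 higher, and the endothelial sum 232 to 269 and then 134 to 147, with 2 of 12 lower. Of 9 tested RPE markers 6 were higher and 1 lower, of 9 rod markers 3 were higher and 4 lower. All 5 erythrocyte markers were lower. The part of these cell types in the rise of Acta2, Ogn and Dcn was not tested. Of 25 contractile companions 11 rose and 2 fell (median 0.39), with the actin-binding calponin Cnn3 at 1.34 (edgeR adjusted p = 2.65e-22) and the cross-linker Actn1 at 1.04 (8.47e-13). TGF-beta companions had 9 of 32 higher and 3 lower (median 0.38), with Ccn1 at 3.03 (1.24e-27). In the matrix list 6 of 32 rose and 7 fell (median -0.18), and in the epithelial list 5 of 16 rose and 2 fell (median 0.13).

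The members that fell in mutants over this interval included Tgfb2, from 116, 112, 126 and 92.6 CPM to 17.5, 36.2, 31.2 and 32.9 (-1.91 ± 0.21, SE, edgeR adjusted p = 1.87e-13), and Tnc, from 16.2, 14.8, 13.8 and 34.1 to 10.1, 3.94, 7.26 and 9.01 (-1.38 ± 0.49, SE, edgeR adjusted p = 0.0212). Col3a1 reached 164, 182, 159.7 and 194 CPM (-1.08 ± 0.24, SE, edgeR adjusted p = 0.00141) and Col1a1 went from 686, 727, 701 and 909 to 327, 287, 364 and 347 (-1.19 ± 0.36, SE, edgeR adjusted p = 0.0164). Tpm2 measured 19.2, 34.5, 16.5 and 18.7 CPM and 8.76, 7.09, 11.96 and 8.62 (-1.28 ± 0.39, SE, edgeR adjusted p = 0.00715). The others fell by less than 1 on the log2 scale, with Col1a2 at -0.93, Zeb1 at -0.56, Mmp14 at -0.49 and Thbs1 at -0.31 (edgeR adjusted p = 0.00143, 0.0228, 0.0393 and 0.0051). Leaving out 1 library ended the Tnc call (mutant replicate 4 at P11 or 2 at P29, 0.176 and 0.0874), the Tpm2 call (replicate 2 at P11, 0.0773), the Zeb1 call (replicate 2 or 4 at P11 or 4 at P29, 0.0557 to 0.179) and the Mmp14 call (replicate 3 or 4 at P11 or 1, 2 or 3 at P29, 0.0683 to 0.191). With no filter the Mmp14 call was lost too (0.0582).

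From P29 to 3M in mutants, 11 members fell, with 12.7% of all genes passing and a median of -0.65, against -0.01. Without control replicate 3 at 3M, which enters only through the shared spread, Col5a1 was added and 12 fell. In that fit 12.5% of 12675 genes passed. Postn measured 1.56, 5.23, 1.80 and 1.31 CPM at 3M (-2.37 ± 0.72, SE, edgeR adjusted p = 0.0262) and Thbs2 went from 11.99, 12.6, 12.4 and 18.8 to 5.47, 0.871, 5.39 and 4.80 (-1.74 ± 0.45, SE, edgeR adjusted p = 0.00358), both below every P29 library. Col3a1, Col1a1 and Col1a2 fell 3.92-, 3.34- and 2.83-fold (edgeR adjusted p = 2.63e-05, 0.00468 and 4.68e-05). Mmp2 measured 17.98, 18.9, 24.8 and 10.2 CPM and 4.30, 5.66, 11.7 and 7.42, with overlap (-1.31 ± 0.38, SE, edgeR adjusted p = 0.0116), and Tgfb2 fell 2.002-fold, also with overlap (-1.01 ± 0.23, SE, edgeR adjusted p = 0.0007). Mmp14, Thbs1, Dcn and Tpm1 fell, with log2 changes of -0.88, -0.76, -0.67 and -0.57 (edgeR adjusted p = 0.000732, 2.2e-10, 8.67e-11 and 0.00319). The Postn call was lost without mutant replicate 1, 3 or 4 at either age (edgeR adjusted p = 0.0589 to 0.101) and the Mmp2 call without replicate 3 at P29 or 1 at 3M (0.0728 and 0.0729).

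Over this later interval in mutants the fibroblast sum was 371 to 388 CPM and then 231 to 250.5, with 5 of 12 tested markers lower, the endothelial sum 134 to 147 and then 41.05 to 48.5, with 10 of 12 lower, and the pericyte sum 190.4 to 249.8 and then 206 to 237, with 2 of 8 lower. Rod (9 of 9), erythrocyte (5 of 5) and lens (8 of 9) markers were lower as well. Their part in the members' fall was not tested. In the matrix list 9 of 32 companions fell and 1 rose (median -0.40), with Eln at -1.94 (edgeR adjusted p = 8.61e-11). TGF-beta companions had 6 of 32 lower and 1 higher (median -0.41), cytoskeletal companions 4 of 25 lower and 3 higher (median -0.18), and the epithelial list 2 of 16 higher and 0 lower (median -0.03).

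**Figure D4:**
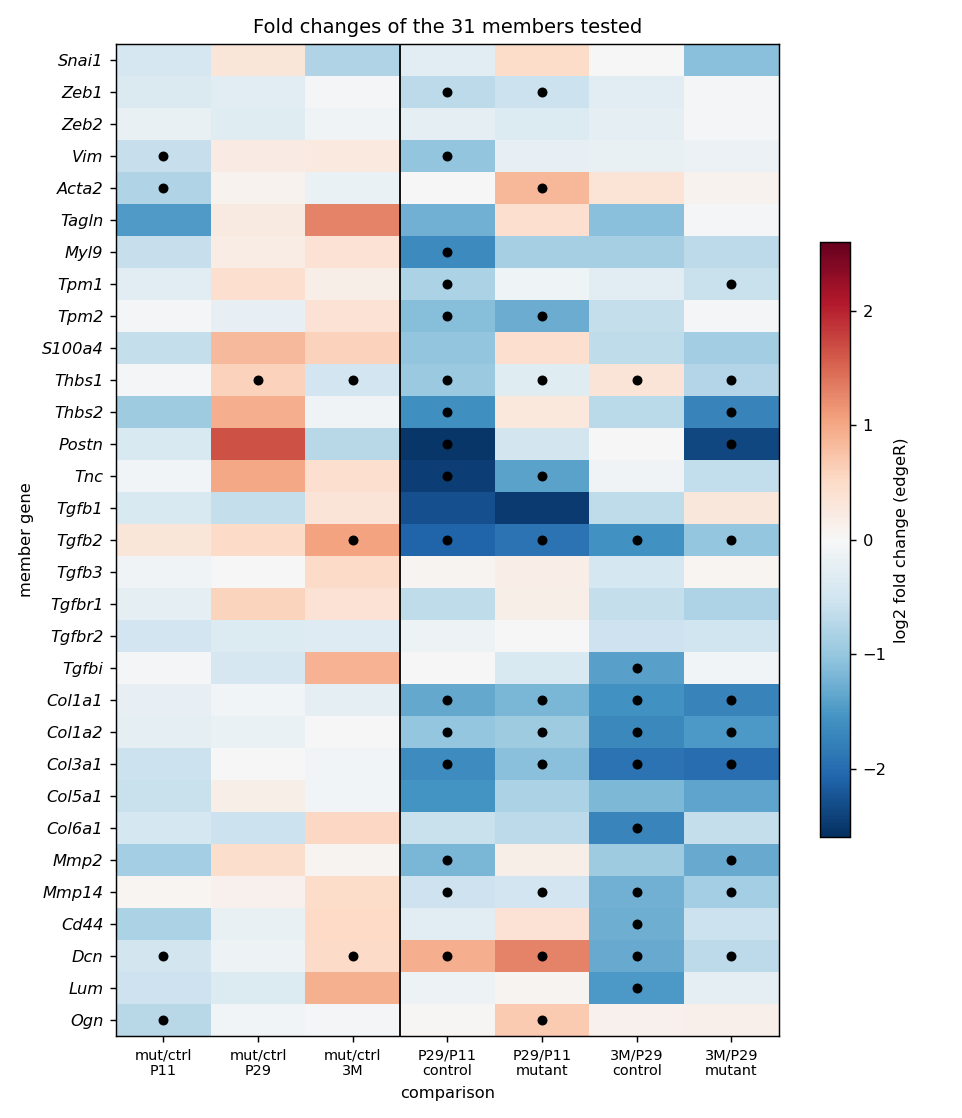
Log2 fold change (colour, from edgeR) of the 31 members tested (rows) in 3 genotype comparisons and 4 age comparisons (columns), with a black dot where the adjusted p was under 0.05. Blue is lower in the mutant or at the later age: Col1a1, Col1a2, Col3a1, Mmp14 and Tgfb2 carry a dot in all 4 age columns.

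Over the 4 age comparisons, 5 members fell in each: Col1a1, Col1a2, Col3a1, Mmp14 and Tgfb2, or 16.1% of 31, where 2.16% of all genes tested did. As given above, the P11 to P29 calls of Mmp14 were lost without certain single libraries. The P29 to 3M call of Col1a1 in controls was lost on the compared libraries alone. The comparisons within a genotype share the P29 libraries. Of the 31 members tested, 22 were called in at least 1 age comparison (71%) and 6 in at least 1 genotype comparison (19.4%), all of them among those 22. Of all genes tested, 47.2% and 10.1% were. The difference between the age changes of the genotypes is the same as the difference between genotype effects given above, so it passed for Acta2, Vim, Tpm1 and Thbs1 from P11 to P29 and for Thbs1 and Dcn from P29 to 3M. For the other members the age changes of controls and mutants were not shown to differ.

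Among the transcription factors of the transition, Zeb1 was the one called, with age, and the Snai and Twist genes were low in all groups. Zeb2, a repressor related to Zeb1, was called in none of the 9 comparisons, with group means from 62.3 to 93.98 CPM. Zeb1 measured 78.5, 72.8, 63.3 and 76.5 CPM in P11 controls, 46.4, 55.4, 39.8 and 40.6 at P29 and 36.6, 28.9, 48.4 and 35.6 at 3M, and its genotype comparisons had adjusted p of 0.27 at P11, 0.713 at P29 and 0.99 at 3M in edgeR. Snai1 had group means of 1.503 to 3.22 CPM. Snai2 had 50 counts over all 24 libraries, Twist1 138 and Twist2 38, of which 22 were in control replicate 3 at 3M. Cnn1, calponin of smooth muscle, had 15 counts, 7 of them in that library, and Itga5, the fibronectin receptor chain, 55. These 5 fell below the filter on low counts. Under the alternatives that kept them (all 5 with no filter, Twist1 also under others) none passed in any of the 9 comparisons, with edgeR adjusted p of 0.217 or more.

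The 9 tested members called in no comparison were Snai1, Zeb2, Tagln, S100a4, Tgfb1, Tgfb3, Tgfbr1, Tgfbr2 and Col5a1. Tagln, the smooth muscle protein transgelin, had group means of 1.14 to 6.13 CPM and S100a4, a calcium-binding protein of motile and immune cells, 3.62 to 12.04 CPM. Tgfb3 ranged from 14.9 to 21.2, Tgfbr1 from 6.74 to 16.2 and Tgfbr2 from 10.6 to 21.5. Col5a1 belongs in this set only with control replicate 3 at 3M included, as given above.

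**Figure D5:**
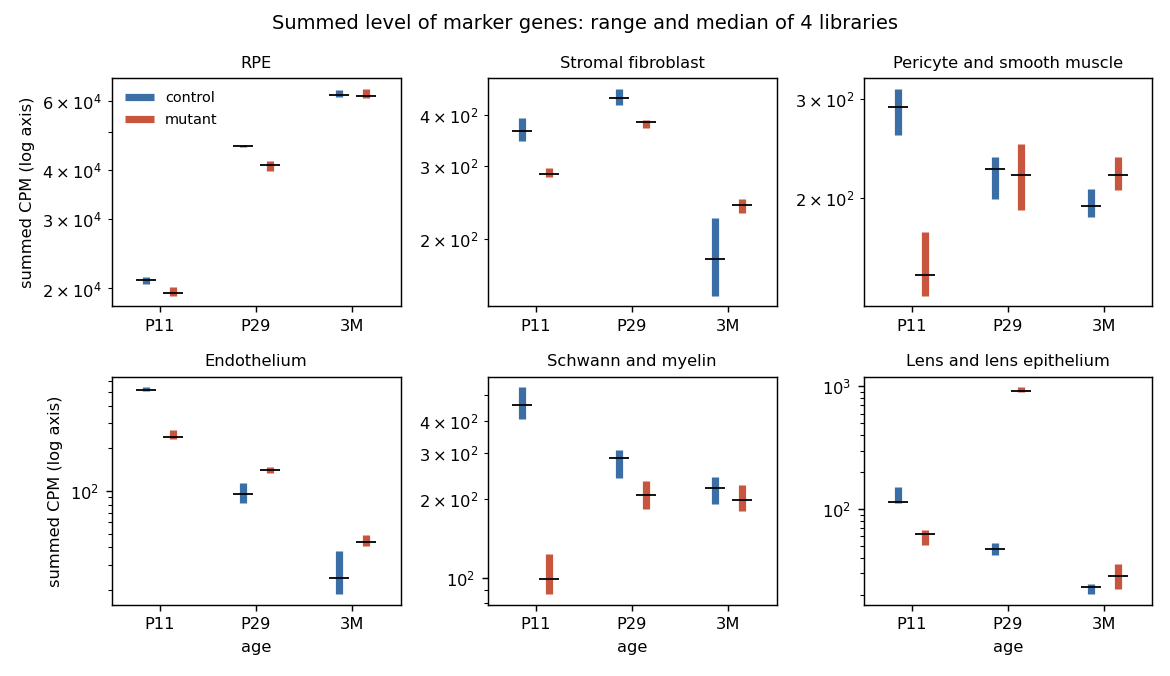
Summed level of marker genes (CPM, log axis) by age (x axis) in control (blue) and mutant (red) libraries. Bars span the lowest to the highest of 4 libraries and the black line is the median. Every sum shown was lower in mutants at P11, without overlap. The lens sum was higher in mutants at P29, and fibroblast and endothelial sums in controls were lower at 3M than at P29.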

How the data were processed

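Whole-number counts per gene were deposited by the authors for 24 libraries of isolated mouse RPE, made per the labels' protocols with a kit that reads transcripts near the 3' end. The submitters' processing notes name STAR and mm10, with no version. The counting tool, its annotation, its strand setting and any use of molecular identifiers are each not given in the sources used here. Entries that name no gene stayed out of library sizes and tests: per library they were unassigned (18.6% to 27.5%), ambiguous (0.192% to 0.322%) and multiply aligned reads (31.0% to 37.2%). Symbols came from the GENCODE annotation of GRCm38, the assembly of mm10, and matched 30934 of 31053 identifiers.

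The members and gene lists were chosen with earlier results of these data known. Counts were fitted with edgeR 4.0.16 in R 4.3.3 (TMM, filterByExpr on groups, robust quasi-likelihood, all 24 libraries, 1 mean per group), and p-values were adjusted over the 12303 genes tested. The method was tested on simulated data for some of the comparisons. No simulated library was made to stand apart, so that test does not cover a library like control replicate 3 at 3M. Other settings tried were DESeq2 1.42.0, size factors by median of ratios, no filter, a filter of 5 CPM in 4 libraries, the compared libraries alone, a replicate block and leaving out each library. Per-library values are given for members called between genotypes or with an age change of at least 1 on the log2 scale, and at most 3 called genes per companion list. Replicate pairs differed beyond sampling noise (36 pairs, chi-square per gene 2.91 to 7.14). Same-numbered libraries did not deviate together (60 pairs, r of -0.043 to 0.036), so numbers were not used as pairs. CPM means carry counting error as well as the spread between libraries. The SE of an edgeR log2 fold change is its size divided by the square root of the test's F statistic.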

Additional observations from a re-analysis of the deposited data

Results flagged for a closer look

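Among the 22 members called in any comparison, 132 groups of 4 libraries were looked at for 1 library far from the other 3 by Dixon's 95% critical value, and 16 had one; chance gives about 1 in 20 groups. Control replicate 3 at 3M was such a library for 6 members: Col1a1 at 292 CPM against 42 to 69.5 in the others, Col1a2 at 366 against 146 to 147, Col3a1 at 97.2 against 28.9 to 31.5, Mmp14 at 36.2 against 15.8 to 17.4, Postn at 14.8 against 0 to 1.35 and Myl9 at 9.15 against 2.42 to 3.16.

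Thbs1 had such a library in 3 groups, at 468 CPM in mutant replicate 1 at P11 (others 413 to 416), 233 in control replicate 2 at 3M (298 to 310.4) and 173 in mutant replicate 4 at 3M (212 to 214). Acta2 stood at 136 CPM in control replicate 4 at P11 (101.6 to 102.3). In mutants at P11, Tpm2 read 34.5 CPM (16.5 to 19.2) and Lum 6.98 (11.6 to 12.3) in replicate 2, and Tnc 34.1 (13.8 to 16.2) in replicate 4. In later mutant groups, Thbs2 read 18.8 CPM in replicate 4 at P29 (11.99 to 12.6) and 0.871 in replicate 2 at 3M (4.80 to 5.47), where Postn read 5.23 (1.31 to 1.80).

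The genotype effect differed between neighbouring ages in 6 tests. From P11 to P29 it rose, on the log2 scale, by 0.82 for Vim, 0.88 for Acta2, 0.71 for Tpm1 and 0.64 for Thbs1. From P29 to 3M it changed by -1.10 for Thbs1 and 0.63 for Dcn.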

How the results depend on the processing

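Of 64 member calls in the 9 comparisons, 48 kept direction and significance under every alternative, 16 lost significance under at least 1, 11 of these only on leaving out a library, and 0 changed sign. At P29 the genotype count of 1 was 2 with no filter on low counts (Postn added) and 3 in a fit on the compared libraries alone (Postn and Tpm1 added). The count for the genotype effect at P29 minus that at P11 was 4 and became 7 on the compared libraries alone (Col3a1, Postn and Thbs2 added). Leaving out 1 library gave genotype counts of 3 to 6 at P11, 1 to 2 at P29 and 2 to 6 at 3M, age counts of 14 to 17 and 8 to 15 in controls and 10 to 13 and 9 to 12 in mutants, and counts of 3 to 5 and 2 to 4 for the differences between ages. Control replicate 3 at 3M was left out of the comparisons without 3M controls only after seeing the data. With a replicate block the counts were 4, 1, 3, 17, 11, 13, 11, 4 and 2 for the comparisons in the order genotype at P11, P29 and 3M, controls P29 and 3M, mutants P29 and 3M, and the 2 differences between ages. The block ended no member call and added Tgfb1 to both P29 age comparisons. Members below about 10 CPM rest on few counts, so misses there do not show that levels were the same.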
